A study of Mus musculus with 30 samples.

Results

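The genes described here are those of mouse chromosome 17 that were expressed in J774A.1 cells and whose level moved little when the unedited cells were treated with interferon gamma (IFNG). J774A.1 is a mouse macrophage-like cell line. A gene was taken when it lay on chromosome 17, had a mean CPM (counts scaled to library size) of at least 1 over all 30 libraries, and had an absolute log2 ratio of mean IFNG to mean untreated CPM, each with 0.5 added, under 0.5 over the 18 WT libraries. Of 1823 chromosome 17 genes in the table of 54146 genes, 623 passed the expression threshold and 565 of those were members. The other 58 responded past the threshold in WT cells, 38 upward and 20 downward. The members were singled out because their levels set the clones apart, higher in KO1, KO2 and WT1 and lower in WT2 and WT3, so the values of that clone split and of the WT response are given as a description, with no inference drawn from a test.

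RNA-seq was done on 5 clones of the line, 3 WT and 2 KO, with 3 libraries of each clone untreated and 3 after 4 h with 100 ng/mL recombinant IFNG. Each KO clone was homozygous for a CRISPR deletion of B2_Mm2.Dicer1, a transposable element that lies within Dicer1, in its first intron, on chromosome 12, and the WT cells carried the element intact. Each clone was grown out from a single cell, WT clones without electroporation, so every library of a clone shares that clone's history. The labels do not say whether the 3 libraries of a group came from separate cultures, and p-values therefore measure the spread between libraries, which may be technical. In the comparison of KO with WT, the clones of a genotype were pooled, so the spread between clones enters its p-values too.

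Counted fragments per library ranged from 15566122 to 37992642, and the libraries of KO1, KO2 and WT1 reached from 19820090 to 37992642 against 15566122 to 27490220 in WT2 and WT3. In the column names of the count table, the libraries of KO1, KO2 and WT1 were numbered 7 to 24 and those of WT2 and WT3 were numbered 25 to 36; the labels do not say whether the numbers mark a batch, and such a batch and the clone split cannot be told apart. Dicer1, the gene that holds the deleted element, had 106 to 127 mean CPM in the untreated WT clones, 71.2 ± 1.27 CPM in KO1 and 106 ± 4.00 CPM in KO2 (SD, n = 3); its exons were left in place, so its level does not check the deletion itself. All 9 macrophage markers had a median of at least 1 CPM, and their summed level was 4748 to 7386 CPM. Markers of T cells, B cells and epithelial cells summed to at most 0.157 CPM in any library, those of fibroblasts to at most 2.99 CPM and those of endothelial cells to at most 3.23 CPM.

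IFNG binds a cell-surface receptor, and the genes it induces include many with gamma-activated sites (GAS) near their start and others with interferon-stimulated response elements (ISRE). Mouse chromosome 17 carries the major histocompatibility complex, H2, with class I and class II genes and the antigen-processing genes that are among the best known IFNG targets. It carries Tnf in the same region, and also many genes of general cell function, such as those for ribosomal proteins, tubulin, chaperones, chromatin proteins and mitochondrial enzymes. By GENCODE biotype 500 members were protein-coding and 29 were pseudogenes, and 2 were not in the annotation release used here.

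To set the non-responding genes beside the responders of the same chromosome in sequence, promoters were read from RefSeq (GRCm38.p6) as 300-base windows, 250 bases before to 50 after the start. A window was found by symbol for 437 of the 565 members. The GAS pattern TTCNNNGAA, which reads the same on both strands, was present in 22 of them (5.03%), in 6 of 31 windows of chromosome 17 genes that rose in WT cells (19.4%) and in 8.47% of all 27025 windows. The ISRE core, GAAA repeated after any 2 bases and searched on both strands, was present in 10 member windows (2.29%), in 3 of the 31 (9.68%) and in 3.49% of all windows. The patterns share bases but were counted separately, a match is a description of letters, and the groups of windows were not tested against each other. The windows of the 2 highest-expressed members that held either pattern, Emilin2 (extracellular matrix glycoprotein; WT response 0.15 on the log2 scale) and Brd2 (bromodomain chromatin reader; WT response 0.03), are shown with that of Eif2ak2 (the interferon-induced RNA-activated kinase PKR; WT response 1.53), which held both. Capitals mark the matched letters, and all 3 windows run 5′ to 3′ on the minus strand: chr17:71311507-71311806 for Emilin2, chr17:34119851-34120150 for Brd2 and chr17:78882523-78882822 for Eif2ak2.
Emilin2: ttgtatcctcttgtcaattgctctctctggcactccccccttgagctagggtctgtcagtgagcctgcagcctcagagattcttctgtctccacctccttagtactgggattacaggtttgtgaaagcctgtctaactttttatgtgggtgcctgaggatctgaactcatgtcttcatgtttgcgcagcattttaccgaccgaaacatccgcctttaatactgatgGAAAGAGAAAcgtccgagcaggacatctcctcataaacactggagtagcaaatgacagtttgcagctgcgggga
Brd2: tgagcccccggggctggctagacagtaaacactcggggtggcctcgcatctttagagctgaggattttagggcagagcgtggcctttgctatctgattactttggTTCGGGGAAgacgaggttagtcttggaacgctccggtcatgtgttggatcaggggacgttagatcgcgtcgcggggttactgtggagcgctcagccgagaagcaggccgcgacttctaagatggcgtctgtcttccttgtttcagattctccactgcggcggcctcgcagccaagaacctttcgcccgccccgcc
Eif2ak2: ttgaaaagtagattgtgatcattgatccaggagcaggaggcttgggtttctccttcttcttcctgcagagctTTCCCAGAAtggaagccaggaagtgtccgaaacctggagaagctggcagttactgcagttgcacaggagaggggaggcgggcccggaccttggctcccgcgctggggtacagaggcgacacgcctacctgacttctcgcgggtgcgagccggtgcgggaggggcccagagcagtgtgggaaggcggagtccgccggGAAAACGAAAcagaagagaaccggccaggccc
The Emilin2 window held the ISRE core, the Brd2 window held a GAS pattern, and the Eif2ak2 window held 1 of each. The RefSeq starts can differ from the bounds of the counted genes. The Emilin2 window lay beyond the 5′ end of the counted gene, at 71310965. The Brd2 window lay inside the counted gene (34112023-34122634).

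The thresholds cut a continuous range. Just inside the response threshold were Neurl1b with a WT log2 ratio of -0.49, D17Wsu92e with 0.49 and Stk19 with 0.49, and just outside it were Synj2 with -0.50, Nlrc4 with -0.54 and Slc37a1 with 0.54. At the expression threshold, Ltb, Efna5 and Gm7335 were just inside at 1.04, 1.04 and 1.05 CPM, and H2-DMb2, Gm10509 and H2-Ob were just outside at 0.975, 0.972 and 0.963 CPM. The name "without IFNG response" holds for the size of the change and not for its detection. In a fit of the 18 WT libraries, 99 members were higher and 138 lower after IFNG at an adjusted p under 0.05 (edgeR quasi-likelihood test with Benjamini-Hochberg adjustment), of 564 members tested, beside 22.1% and 22.4% of all 14328 genes tested. The largest WT responses of the chromosome lay outside the members, in Tap1 (peptide transporter of antigen presentation; 3.14 on the log2 scale), H2-T24 (2.55), Tagap (2.37), 9530082P21Rik (2.14), Trem1 (-1.89) and Pim1 (1.63).

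Each library was then given 1 value, the median over the 565 members of its shift, defined as log2(CPM + 0.5) minus the mean of the 5 clone means in the same treatment, centred on the median over the 12345 expressed genes. In untreated cells the 3 libraries had median shifts of 0.15, 0.12 and 0.12 in KO1, 0.11, 0.13 and 0.13 in KO2, and 0.08, 0.06 and 0.06 in WT1. They had -0.15, -0.19 and -0.17 in WT2 and -0.16, -0.16 and -0.17 in WT3. After IFNG the values were 0.10, 0.11 and 0.12 in KO1, 0.15, 0.12 and 0.09 in KO2, 0.09, 0.09 and 0.07 in WT1, -0.17, -0.18 and -0.13 in WT2, and -0.15, -0.18 and -0.17 in WT3. All libraries of KO1, KO2 and WT1 lay above 0 and all libraries of WT2 and WT3 below it, in both treatments. Among the higher clones, the 3 untreated WT1 libraries lay below every KO library. After IFNG, WT1 and KO2 overlapped.

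**Figure D1:**
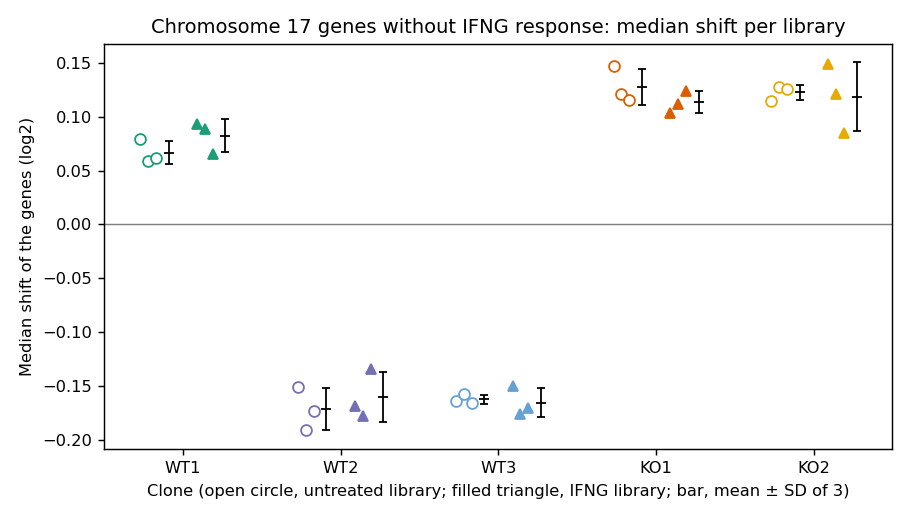
Median shift of the 565 genes (log2 scale, y axis) in each of 30 libraries by clone; open circles are untreated libraries, filled triangles IFNG libraries, and bars the mean ± SD of 3. WT2 and WT3 lie between -0.19 and -0.13, and the other clones between 0.06 and 0.15.

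On a linear scale these are small differences spread over many genes. The median member was 1.20 times as high in KO1, KO2 and WT1 as in WT2 and WT3 in untreated cells, a log2 difference of 0.26, and the quartiles were 0.13 and 0.40. After IFNG the median difference was 0.26, or 1.20 times. The difference was above 0 for 501 of 565 members untreated (88.7%) and for 504 after IFNG (89.2%). Of 10402 genes on the other chromosomes taken by the same thresholds, 46.0% and 45.6% lay above 0, with medians of -0.02 and -0.02. By gene, 431 members were higher and 36 lower at an adjusted p under 0.05 in the untreated split, beside 28.1% and 29.6% of all 14467 genes tested, and 400 were higher and 20 lower after IFNG, beside 26.2% and 27.7% of 14176 (edgeR quasi-likelihood test); as the members were chosen on this contrast, nothing is read from these counts.

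The lower clones were close to each other over the members, and they were also close over all genes tested. WT3 minus WT2 had a median of 0.02 untreated and -0.02 after IFNG. At an adjusted p under 0.05, 41 (7.26%) and 28 members (4.96%) differed between them, beside 9.3% and 6.76% of all genes tested (edgeR quasi-likelihood test). KO1 minus KO2 had a median of 0.00 in both treatments. Between the KO clones 132 (23.4%) and 64 members (11.3%) differed, beside 25% and 15.6% of all genes. The shares were near or below those of all genes, so nothing is read from them about the members. WT1 differed more from the KO clones, over the members and over all genes alike. Its median difference from them over the members was -0.05 untreated and -0.03 after IFNG. The untreated quartiles were -0.18 and 0.10, against -0.14 and 0.16 for genes of the other chromosomes taken by the same thresholds. At an adjusted p under 0.05, 303 members (53.6%) differed untreated and 251 (44.4%) after IFNG, beside 49.9% and 44.6% of all genes tested (edgeR quasi-likelihood test). The grouping by genotype cut across the clone split. Both KO clones are among the higher clones and the lower clones are WT, so the choice of chromosome favours calls higher in KO. The comparison of KO with WT took libraries, not clones, as its units, and nothing is read from its counts. In the comparison of KO with WT libraries, 251 members were higher and 11 lower in KO cells untreated, beside 12.2% and 14.4% of 13886 genes, and 218 were higher and 9 lower after IFNG, beside 10.9% and 13% of 13637 (edgeR quasi-likelihood test); without the clone WT1 the untreated counts were 412 and 12, and without KO1 they were 143 and 1.

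The size of the split depended little on expression. In the 142 members of lowest mean CPM (1.04 to 10.5 CPM) the median untreated split was 0.25, and in the next 3 groups of 141 it was 0.27, 0.27 and 0.26. The part from WT1 was lower in the group of highest expression (74.2 CPM and above), where WT1 minus the mean of WT2 and WT3 was 0.19, against 0.24, 0.26 and 0.27 in the others. Across the 565 genes, the untreated split and the IFNG split had a Pearson r of 0.880 and a Spearman rho of 0.849; the values come from different libraries of the same clones, and genes are not independent replicates. The split had a Spearman rho of -0.07 with exon length.

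Among 20 chromosomes compared by the same thresholds, chromosome 17 had the highest median split, 0.26 untreated, and the next highest was 0.05 on the X chromosome. The lowest was -0.19 on chromosome 6, whose median shifts were -0.14 in KO1 and -0.16 in KO2 against 0.07 to 0.11 in the WT clones. On chromosome 12, which carries Dicer1, the median shift was -0.29 in KO1 and between 0.05 and 0.09 in the other clones. Among the 19 other chromosomes, WT1 minus the mean of WT2 and WT3 stayed between -0.08 and 0.03 untreated, against 0.24 on chromosome 17.

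**Figure D2:**
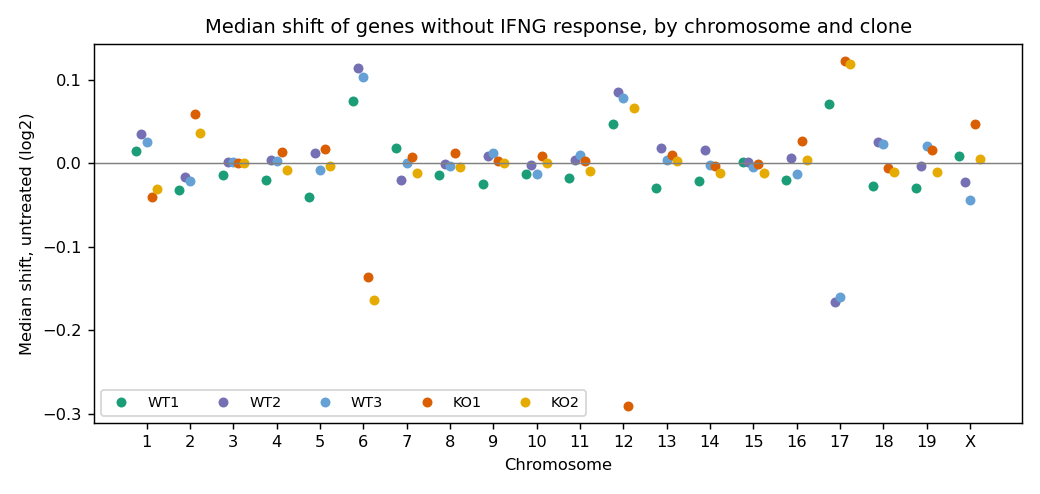
Median shift of untreated libraries (log2 scale, y axis) for genes of each chromosome taken by the same thresholds (x axis), with 1 point per clone. The clones spread most on chromosomes 6, 12 and 17, and on chromosome 17 WT2 and WT3 lie at -0.17 and -0.16 while the other clones lie at 0.07 to 0.12.

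Along the chromosome the split was not even. The members were put in order of their start and taken 20 at a time, which gave 28 full stretches and a last one of 5 genes. In all 28 full stretches, and in both treatments, the median shift was below 0 in WT2 and WT3, and the median of the split was above 0, from 0.10 to 0.39 untreated. The median shift of KO2 was above 0 in all 28 in both treatments, and that of KO1 in 27 untreated and in 28 after IFNG. WT1 moved more: its untreated stretch medians reached from -0.24 to 0.23, with 24 of 28 above 0, and it was highest in the 18th stretch. By position, WT1 minus the mean of WT2 and WT3 was 0.22 from 0 to 10 Mb (32 members), 0.17 from 10 to 20 Mb (33 members), 0.34 from 30 to 40 Mb (143 members) and 0.08 from 60 to 70 Mb (19 members) in untreated cells, while KO minus WT2 and WT3 was 0.40, 0.30, 0.25 and 0.23 there.

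**Figure D3:**
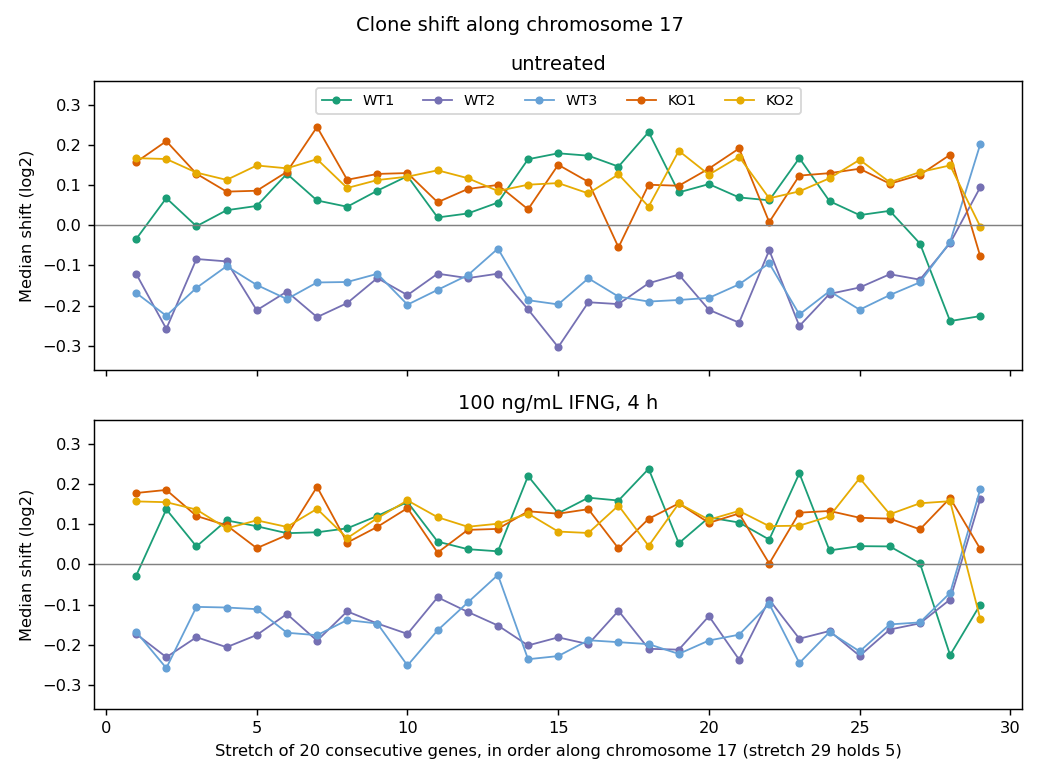
Median shift (log2 scale, y axis) of consecutive stretches of 20 genes in chromosome order (x axis; the last holds 5), by clone, untreated above and IFNG below. WT1 lies with the KO clones over most of the chromosome and drops to -0.24 untreated and -0.23 after IFNG in stretch 28.

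At the distal end the order of the clones changed. From 84 Mb on, a point chosen after the values were seen, there were 26 members, and WT1 minus the mean of WT2 and WT3 had a median of -0.23 untreated and -0.18 after IFNG, below 0 in 19 and 20 of the 26. Over the 539 members before 84 Mb it was 0.25 in both treatments. The KO clones kept a higher level in most of the distal genes, with a median of 0.20 untreated and 0.16 after IFNG, above 0 in 18 of 26 in both. By library, the 22 members from 84 to 92 Mb had median shifts of -0.23, -0.27 and -0.21 in the untreated WT1 libraries and of -0.22, -0.19 and -0.23 in the IFNG ones. These 6 WT1 libraries were the lowest of the 30 there, whereas before 84 Mb they lay between 0.07 and 0.11. In the last 4 members, past 92 Mb, the KO clones were also lower than WT2 and WT3, with medians of -0.25 untreated and -0.32 after IFNG, a value that rests on 4 genes. By gene, 17 of the 26 were lower in WT1 untreated and 2 higher at an adjusted p under 0.05 (edgeR quasi-likelihood test). The shares over all genes tested were 27.9% and 29.2%. After IFNG 12 were lower and 3 higher by the same test, beside 25.7% and 27.3%. As the 84 Mb point was chosen on these values, nothing is read from these counts.

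Genes of the distal end show the pattern one by one; they were named after their values were seen. Lrpprc (chr17:84705247-84790789), which stabilises mitochondrial mRNAs, had 73.5, 77.7 and 80.8 CPM in untreated WT1. It had 104, 107 and 105 CPM in WT2, 105, 107 and 106 CPM in WT3, 115, 118 and 115 CPM in KO1, and 117, 112 and 119 CPM in KO2. WT1 lay below every other library and the KO libraries above every WT library, without overlap. Calm2 (chr17:87433412-87446935), 1 of the calmodulin genes, had 369.7, 345 and 319.8 CPM in WT1, 410.1, 438 and 419.8 CPM in WT2, 419, 408 and 413 CPM in WT3, 514, 517 and 579.9 CPM in KO1, and 464, 474 and 465 CPM in KO2. The order was the same, with WT1 lowest and KO highest. Msh6 (chr17:87975050-87990883), a mismatch repair protein, did not follow it: WT1 had 126, 141 and 139 CPM, above WT2 (123, 124 and 126 CPM) and WT3 (119, 124 and 121 CPM) but for a near tie, with KO1 at 163, 159.9 and 163 CPM and KO2 at 169, 165 and 163 CPM. Prkce, a protein kinase C, went the other way from most, at 12.4 ± 0.755 CPM in WT1 against 9.40 ± 0.637 CPM in WT2 and 9.30 ± 0.469 CPM in WT3 (SD, n = 3).

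The highest-expressed members showed the split at close range. Hsp90ab1, a constitutive HSP90 chaperone, had 2447, 2448 and 2433 CPM in untreated KO1, 2509.8, 2390.3 and 2409.7 CPM in KO2, and 2328, 2600.2 and 2491 CPM in WT1. It had 2041, 2167 and 2112 CPM in WT2 and 1953, 1976 and 1908 CPM in WT3. No library of the lower clones reached the lowest one of the higher clones, and the split was 0.26 ± 0.03 on the log2 scale (SE), the middle of the members. Tcp1, a subunit of the cytosolic chaperonin, split by 0.32 ± 0.03 and Srrm2, a splicing protein, by 0.29 ± 0.04. Tubb5, a beta-tubulin, split by only 0.10 ± 0.03. Its untreated WT1 mean of 1519 CPM lay near WT2 and WT3, at 1494 and 1486 CPM, with KO1 and KO2 at 1659 and 1656 CPM. The gene with the most counts of all, Gm42418, is a noncoding gene that overlaps ribosomal RNA sequence; its mean was 19881 CPM, its untreated libraries ranged from 9093 CPM in KO1 to 29182 CPM in WT1, and its split was -0.36 ± 0.12 untreated and 0.30 ± 0.14 after IFNG. Among members of at least 50 CPM, D17Wsu92e, Tbl3 and Dhx16 lay nearest the median, at 0.27 each. D17Wsu92e had untreated means of 169, 161 and 161 CPM in KO1, KO2 and WT1 against 133 and 137 CPM in WT2 and WT3. The others did not have all 3 clones high. Tbl3 in WT1, at 56.9 CPM, lay near WT2 and WT3, at 55.3 and 54.2 CPM. Dhx16 in KO1, at 60.9 CPM, lay near WT2 and WT3, at 57.9 and 57.4 CPM.

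The members with the largest splits at 10 CPM or more were Ier3, Emilin2, Hmga1, Itpr3 and Agpat4, from 1.23 to 1.00 on the log2 scale. Emilin2 had 1013, 902 and 942 CPM in untreated KO1, 1159, 1199 and 1124 CPM in KO2, 948, 967 and 971 CPM in WT1, 438, 420.4 and 420.5 CPM in WT2, and 498, 465 and 490.1 CPM in WT3. The groups were far apart, with a split of 1.16 ± 0.03, and they were as far apart after IFNG at 1.23 ± 0.05. Hmga1, an architectural chromatin protein, had 129 to 155 CPM in the untreated libraries of the higher clones and 56.4 to 71.7 CPM in those of the lower clones. Itpr3, an intracellular calcium channel, had 134 to 203 CPM against 77.3 to 89.8 CPM. Ier3, an immediate early gene, did not split cleanly: KO1 had 34.3, 27.2 and 30.6 CPM and WT3 29.9, 28.4 and 27.7 CPM, which overlap, and WT1 was highest at 116, 95.6 and 90.7 CPM.

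At the other end were Myo1f, Pde10a, Mettl4, Gm42418 and Tmem8, from -0.42 to -0.36. Myo1f, an unconventional myosin of leukocytes, had 190.3, 185 and 198 CPM in untreated WT2, 163, 156 and 169 CPM in WT3, 174, 173 and 173 CPM in KO1, 113, 110.5 and 115 CPM in KO2, and 112, 117 and 126 CPM in WT1. KO1 lay with the lower clones for this gene, above KO2 and WT1. Pde10a, a cyclic nucleotide phosphodiesterase, was lower in every library of the higher clones, at 13.6 to 16.6 CPM, than in those of WT2 and WT3, at 18.9 to 19.9 CPM.

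**Figure D4:**
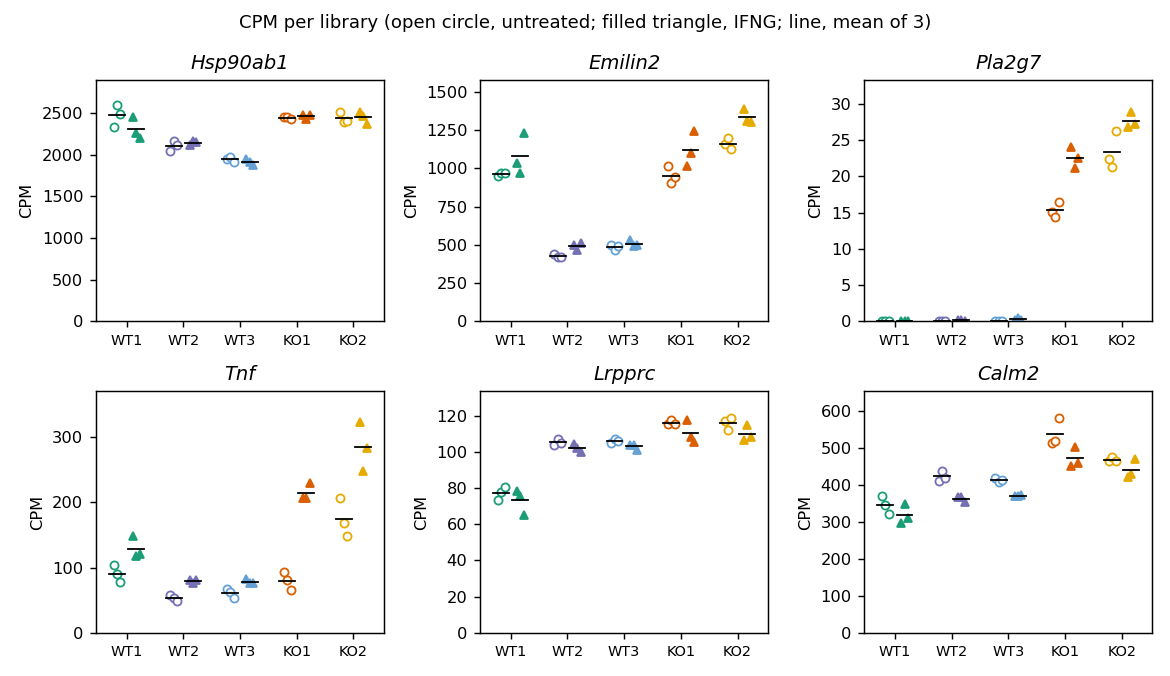
CPM (y axis, from 0) in each library of 5 clones for 6 members; open circles are untreated libraries, triangles IFNG libraries and lines the mean of 3. Hsp90ab1 and Emilin2 are higher in KO1, KO2 and WT1, Lrpprc and Calm2 are lowest in WT1, Pla2g7 is near 0 in the WT clones, and Tnf rises most in KO1.

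The extended MHC list is a selection of genes of the H2 region and its neighbourhood and does not hold all of them. It had 60 members among its 68 symbols, 2 more had passed the WT response threshold and 5 were under 1 CPM. Its median untreated split was 0.33, against 0.27 over all 565 members and 0.00 over all genes tested, with 53 higher and 4 lower. For this and the lists that follow, the shares called in the untreated split were 28.1% higher and 29.6% lower over all genes tested, and 76.3% and 6.37% over the members, so the lists are to be read against their own chromosome. Clic1, an intracellular chloride channel protein, had 566 to 671 CPM in the higher clones untreated and 364 to 384 CPM in the lower ones. Brd2 had 339 to 403 CPM against 276 to 293 CPM, without overlap. Prrc2a, a large RNA-associated protein, split by 0.13 ± 0.04, but its untreated WT1 mean of 534 CPM lay between WT2 and WT3, at 520 and 540 CPM. KO1 and KO2 were at 612 and 610 CPM. Reads of the class I gene H2-Q6 and of H2-K2, annotated as a transcribed unprocessed pseudogene, can be divided among near-identical copies, so their counts are uncertain.

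Of 22 genes for protein synthesis and folding, 18 were members, with a median untreated split of 0.33, 16 higher and 1 lower, beside 28.1% and 29.6% of all genes. Rps10, a protein of the small ribosomal subunit, had 339 to 377 CPM in the higher clones and 241 to 262 CPM in the lower ones. Rpl10a, of the large subunit, split by 0.34 ± 0.02. The mitochondrial list had 25 members of 27 and a median of 0.36, with 22 higher and 1 lower. Ndufv2, a subunit of respiratory complex I, had 116 to 149 CPM in the higher clones against 88.5 to 105 CPM, and Cox7a2l, a respiratory supercomplex factor, split by 0.47 ± 0.03. Mtch1, a mitochondrial outer membrane insertase, split by 0.33 ± 0.03. Acat2, an acetyl-CoA acetyltransferase of the cytosol that this list also holds, split by 0.08 ± 0.05. Its untreated WT1 mean of 130 CPM lay near WT2 and WT3, at 134 CPM each, with KO1 and KO2 at 147 and 151 CPM. Lrpprc, of the distal end, was the lowest of this list at -0.07.

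The cell cycle and DNA repair list had 19 members of 21, a median split of 0.28, 17 higher and 1 lower, beside 28.1% and 29.6% of all genes. Uhrf1, which recruits maintenance DNA methylation, split by 0.37 ± 0.02, Birc6, a giant inhibitor of apoptosis, by 0.35 ± 0.03 and Ppp2r1a, the scaffold of protein phosphatase 2A, by 0.35 ± 0.02. Of 31 genes for chromatin and RNA processing, 29 were members, with a median of 0.25, 23 higher and 2 lower. Qk, an RNA-binding protein, split by 0.36 ± 0.04, and Srsf3, a splicing factor, by 0.01 ± 0.03. Of 28 signalling genes, 22 were members, with a median of 0.26, 20 higher and 2 lower, and 5 had passed the WT response threshold. Pdpk1, an activator of AKT, split by 0.28 ± 0.03 and Srpk1, an SR protein kinase, by 0.29 ± 0.02, while Rab31, a small GTPase, was at -0.10 ± 0.02. The lists were written with results of these data known, so the counts describe the members only.

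In the myeloid list only 11 of its 24 genes were members, as 7 had passed the WT response threshold and 6 were under 1 CPM, and 5 of the 11 were higher and 3 lower in the untreated split, beside 28.1% and 29.6% of all genes. Abcg1, a cholesterol exporter, had 181 to 229.8 CPM in the higher clones and 111 to 140.0 CPM in the lower ones. Vav1, a guanine nucleotide exchange factor of blood cells, had 203 to 235 CPM against 172 to 178 CPM. Trem2, a lipid-sensing receptor of macrophages, had a split of -0.01 ± 0.03, and its libraries overlapped.

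Adgre1 and Pla2g7, named after their values were seen, ran along other lines than the split. Adgre1 (chr17:57358686-57483529) encodes F4/80, a marker of mouse macrophages. It had 237, 247 and 259 CPM in untreated KO1, 277, 281 and 299 CPM in KO2, 107, 98.7 and 94.4 CPM in WT2, 46.6, 41.0 and 39.4 CPM in WT3, and 9.60, 9.43 and 11.9 CPM in WT1. Each clone had its own level and none overlapped with another, with WT1 lowest. Pla2g7 (chr17:43568098-43612201), a secreted phospholipase that degrades platelet-activating factor, was at 0 in 7 of the 9 untreated WT libraries and at most 0.0623 CPM in the others. It had 15.1, 14.4 and 16.5 CPM in KO1 and 22.4, 21.3 and 26.3 CPM in KO2. The WT libraries and the KO libraries did not overlap, and the level of WT1 was with the other WT clones. Its mean of 8.94 CPM passed the expression threshold through the KO libraries alone. In WT cells it was so near 0 that the 0.5 added to each mean held its log2 ratio to 0.37. In the KO clones it rose after IFNG, by 0.59 ± 0.07 in KO1 and 0.25 ± 0.08 in KO2 on the log2 scale (SE). As the KO libraries alone made it a member, these rises are given as a description.

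The IFNG response of the KO clones was not used to choose the members and can be tested. The level of the KO libraries did count in the expression threshold. Pla2g7, which passed that threshold through the KO libraries alone, is included in the counts below and is no support for them. In KO1, 75 members rose and 83 fell at an adjusted p under 0.05, beside 16.2% and 13.2% of all 13757 genes tested, and in KO2, 63 rose and 74 fell, beside 13.9% and 13.2% of 14038 (edgeR quasi-likelihood test). That is 28% and 24.2% of the members, beside 23.2% and 20.9% of the genes on the other chromosomes taken by the same thresholds. The KO2 counts were 44 and 45 without its second untreated library. In both clones and in the same direction, 104 members were called (18.4%), 48 upward and 56 downward, and none was called in opposite directions. Of all genes tested in both clones, responders included, 21.5% were called in the same direction. The share was 14.3% of the genes on the other chromosomes taken by the same thresholds. These shares were not tested against each other. The 104 were 65.8% of the KO1 calls and 75.9% of the KO2 calls. The medians over the members were -0.02 and -0.03 on the log2 scale, against 0.00 and 0.00 over all genes tested in each clone.

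Most responses were small here too. An absolute log2 fold change of at least 0.5 at an adjusted p under 0.05 was reached by 23 members in KO1, 16 upward and 7 downward, and by 14 in KO2, 6 upward and 8 downward. Only 4 reached it in both clones: D17Wsu92e, Tnf and Gm7030 upward and Adamts10 downward. All 104 members called in both KO clones had the same sign in the WT libraries, and their median absolute WT response was 0.28, against 0.07 for the other members. The WT response is a value that the rule used, so this is a description and no support for the KO calls. The KO1 and KO2 responses, from separate libraries, had a Pearson r of 0.646 over the 565 members and of 0.786 over the 431 with at least 10 CPM.

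**Figure D5:**
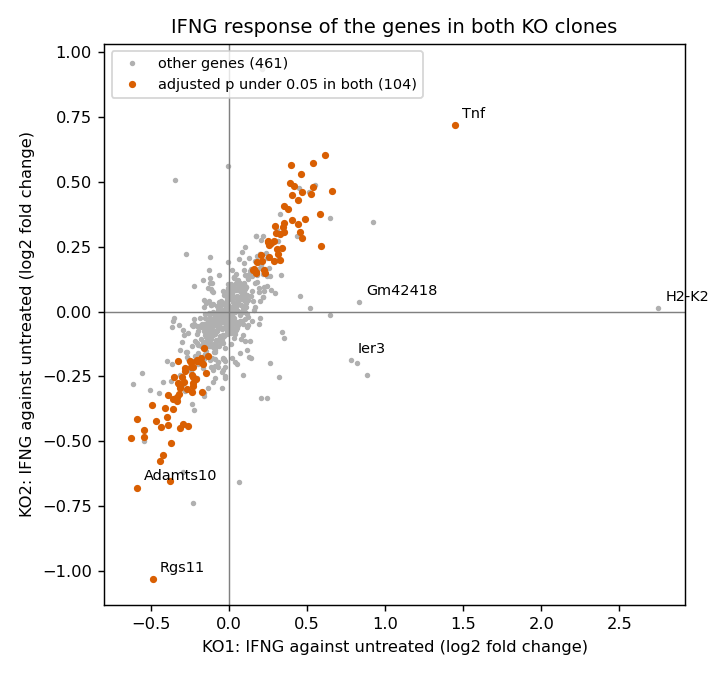
Log2 fold change after IFNG in KO1 (x axis) and KO2 (y axis) for the 565 genes; orange points are the 104 with an adjusted p under 0.05 in both clones. Among the orange points Tnf is highest in each clone, and H2-K2 and Ier3 lie to the right, with rises of 2.75 and 0.78 in KO1 and no call in KO2.

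Tnf (chr17:35199381-35202007), the inflammatory cytokine tumour necrosis factor, had the largest mean response of the members called in both KO clones. It had 93.3, 81.5 and 65.1 CPM in untreated KO1 and 207, 206 and 229 CPM after IFNG. In KO2 it had 207, 168 and 149 CPM untreated and 323, 249 and 284 CPM after IFNG. Treated and untreated libraries did not overlap in either clone, and the log2 fold changes were 1.45 ± 0.10 (SE, adjusted p = 3.7e-08) and 0.72 ± 0.10 (adjusted p = 6e-05; edgeR quasi-likelihood test). The WT value that kept Tnf among the members was 0.48, just inside the threshold. The difference between the KO responses, KO2 minus KO1, was -0.72 ± 0.17 and missed the threshold (adjusted p = 0.159, edgeR quasi-likelihood test).

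The other members with the largest rises in both KO clones were H2-Q6 (0.66 ± 0.09 in KO1 and 0.47 ± 0.06 in KO2), Gm7030 (0.62 ± 0.16 and 0.60 ± 0.18), D17Wsu92e (0.54 ± 0.04 and 0.57 ± 0.04) and Trim26 (0.54 ± 0.05 and 0.48 ± 0.05). H2-Q6 is a nonclassical class I gene and Trim26 is a ubiquitin ligase of the MHC region; Gm7030, at 2.95 CPM, is annotated in that region. Trim26 went from 49.8, 53.0 and 47.3 to 72.3, 69.6 and 71.6 CPM in KO1, and its WT response of 0.43 was of the same order. Gm7030 lost its KO2 call without the first untreated or the second IFNG library (adjusted p = 0.0918 and 0.091, edgeR quasi-likelihood test).

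The largest falls in both were those of Rgs11, Adamts10, Klc4, Zfp760 and Tnfaip8l1. Adamts10, a secreted metalloprotease, went from 25.5 ± 1.73 to 16.5 ± 0.542 CPM in KO1 and from 25.3 ± 1.15 to 15.5 ± 2.28 CPM in KO2 (SD, n = 3). The treated libraries lay below every untreated one, with log2 fold changes of -0.59 ± 0.07 and -0.68 ± 0.09. Klc4, a kinesin light chain, fell by 0.63 ± 0.06 and 0.49 ± 0.08, and Tnfaip8l1, a regulator of cell death, by 0.54 ± 0.11 and 0.48 ± 0.09. Rgs11, a regulator of G protein signalling with a mean of 3.05 CPM, fell by 0.49 ± 0.14 in KO1 and 1.03 ± 0.16 in KO2, and Zfp760, a zinc finger gene, by 0.38 ± 0.11 and 0.65 ± 0.12. The KO1 calls of Rgs11 and Zfp760 were lost with DESeq2 (adjusted p = 0.054 and 0.0858). That of Rgs11 was also lost without the second untreated or the first IFNG library (adjusted p = 0.0858 and 0.0522, edgeR quasi-likelihood test). That of Zfp760 was lost without the first or second untreated or the first or second IFNG library (adjusted p from 0.0502 to 0.0941, same test).

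The lists are given beside all genes tested, of which 16.2% rose and 13.2% fell in KO1 and 13.9% rose and 13.2% fell in KO2; over the members it was 13.3% and 14.7% in KO1 and 11.2% and 13.1% in KO2. Of 19 cell cycle and DNA repair genes, 8 fell and 2 rose in KO1, and 7 fell and none rose in KO2. Msh6 fell by 0.47 ± 0.05 and 0.42 ± 0.04, and Uhrf1 by 0.32 ± 0.05 and 0.30 ± 0.04. No gene for protein synthesis and folding rose in either clone, and 4 of 18 fell in KO1 and 3 in KO2. Of 25 genes of the mitochondrial list, 1 rose and 1 fell in KO1, and none was called in KO2. In the extended MHC list 8 of 60 rose and 5 fell in KO1, and 7 rose and 6 fell in KO2. The list does not hold H2-K2, which rose by 2.75 ± 0.14 in KO1 and was not called in KO2 (0.01 ± 0.26). Of the 11 myeloid genes, 4 rose and 1 fell in KO1 and 5 rose and 1 fell in KO2; Vav1 rose by 0.47 ± 0.05 and 0.28 ± 0.04, and Myo1f fell by 0.24 ± 0.05 and 0.31 ± 0.04. Of 22 signalling genes, 4 rose in each clone and 1 and 2 fell. Of 29 for chromatin and RNA processing, 5 rose and 3 fell in KO1, and 4 rose and 4 fell in KO2.

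Whether the KO clones differed in their response was tested in a fit of all 12 KO libraries. The response of 2 members, H2-K2 and Ier3, was lower in KO2 than in KO1 at an adjusted p under 0.05 and that of none was higher, beside 0.139% and 0.0139% of 14370 genes tested (edgeR quasi-likelihood test); at an unadjusted p under 0.05 there were 31 members, and DESeq2 also called 2. H2-K2, annotated as a transcribed unprocessed pseudogene of the H2 region, had 2.18, 2.12 and 1.65 CPM in untreated KO1 and 13.1 ± 1.70 CPM after IFNG (SD, n = 3). In KO2 it had 9.66, 8.79 and 3.45 CPM untreated and 6.36, 8.75 and 6.69 CPM after IFNG. Its KO1 libraries separated by treatment and its KO2 libraries did not, and the difference in response was -2.74 ± 0.38 (adjusted p = 0.00421). Its WT libraries also varied widely within a group, from 2.72 to 9.93 CPM in untreated WT1. The Ier3 difference was -0.96 ± 0.18 (adjusted p = 0.0472, edgeR quasi-likelihood test). Its libraries went from 34.3, 27.2 and 30.6 to 40.3, 50.9 and 64.3 CPM in KO1, and from 75.3, 70.1 and 57.8 to 61.3, 55.3 and 60.7 CPM in KO2; the call was lost in 9 of the 12 fits that left out 1 library.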

How the data were processed

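RNA-seq of J774A.1 clones was analysed from the deposited table of raw counts per gene, in which the authors had counted read pairs by strand with featureCounts 1.6.2 after HISAT2 2.1.0 alignment to mm10. SAMtools 1.10 is also named in the submitters' processing notes. Reads in overlapping genes were counted for each. The exon lengths deposited beside the counts are annotation values. The 13 other deposited tables repeat these columns. Library size, from 15566122 to 37992642 counted fragments, sets the precision of low counts. Columns were assigned to groups by name, and library numbers within a group follow the column order.

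CPM were computed with TMM factors in edgeR 4.0.16 (R 4.3.3). Differences were fitted across all genes with edgeR's quasi-likelihood test after its default expression filter, with Benjamini-Hochberg adjustment over all genes tested; standard errors are the log2 fold change divided by the square root of F. Alternatives were DESeq2 1.42.0, RLE factors, TMM factors without chromosome 17, other count filters, other thresholds and pseudocounts, and each library or clone left out. The steps were tested on simulated data. Replicate pairs differed by more than sampling noise (chi-square per degree of freedom of at least 1.95).

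The members and lists were chosen with earlier results of these data known. Genes were named by rule: the 2 to 4 highest CPM of each list, the 6 highest CPM, the 5 highest and 5 lowest untreated splits at 10 CPM or more, the 3 genes on each side of a threshold, up to 5 per direction called in both KO clones, the 3 nearest the median split at 50 CPM or more, and the 6 largest WT responses at 10 CPM or more; exceptions are stated.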

Additional observations from a re-analysis of the deposited data

Results flagged for a closer look

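The response to IFNG differed between the KO clones for H2-K2, annotated as a transcribed unprocessed pseudogene, by -2.74 on the log2 scale (KO2 minus KO1, adjusted p = 0.00421, edgeR quasi-likelihood test). The difference kept its direction and its call in all 12 fits that left out a library. The untreated KO2 libraries of this gene ranged from 3.45 to 9.66 CPM, and reads can be divided among class I copies; the part of either in the difference was not tested.

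The response of Ier3 differed by -0.96 (adjusted p = 0.0472). Without 1 library the difference was between -1.12 and -0.78, and the call was lost in 9 of the 12 fits. The groups of 3 libraries were too small to look for single outlying libraries.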

How the results depend on the processing

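The clone order of the median shift kept its signs under all settings tried. With all chromosome 17 genes under the response threshold that had at least 1 count (1183 genes), the untreated medians were 0.018 in WT1, -0.054 in WT2, -0.058 in WT3, 0.021 in KO1 and 0.042 in KO2, and those after IFNG 0.033, -0.063, -0.061, 0.027 and 0.021. Depth limits these genes of low counts. With a minimum of 10 CPM the WT1 medians were 0.059 untreated and 0.060 after IFNG and that of KO1 after IFNG was 0.13. Untreated WT3 had -0.17 and -0.15 with pseudocounts of 0.1 and 1 and -0.17 when centred on the genes outside chromosome 17, and untreated KO2 had 0.13 without centring. Leaving out 1 library gave 0.06 to 0.07 in WT1, -0.17 to -0.16 in WT2, -0.17 to -0.16 in WT3, 0.11 to 0.13 in KO1 and 0.12 to 0.13 in KO2 untreated, and 0.07 to 0.09, -0.17 to -0.15, -0.17 to -0.16, 0.11 to 0.12 and 0.11 to 0.13 after IFNG.

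Counts of members called depended most on the clones. For KO against WT there were 262 untreated and 227 after IFNG; without WT1 there were 424 and 391, without KO1 144 and 105, and without WT2 150 after IFNG. Leaving out 1 library gave 118 to 153 for the KO1 response, 89 to 145 for the KO2 response (89 without the second untreated library), 446 to 471 and 402 to 428 for the split, 234 to 305 and 186 to 268 for KO against WT, and 1 to 3 for the difference in response. That difference had 2 members, 1 with TMM factors from genes outside chromosome 17 or with at least 10 counts in every library, and 8 with no count filter. The distal WT1 median, in settings chosen after seeing the data, was -0.20 and -0.16 from 82 Mb, -0.21 and -0.13 from 86 Mb, and -0.18 and -0.12 at 10 CPM or more, and without 1 library between -0.25 and -0.22 untreated and between -0.18 and -0.13 after IFNG. The cause of these changes was not tested. No paired analysis was possible because the columns carry no replicate numbers, so the replicate block was not run.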

Other observations

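The 58 chromosome 17 genes that passed the WT response threshold are not members and showed a like clone split. Their median untreated shift was 0.19 in WT1, -0.21 in WT2, -0.21 in WT3, 0.06 in KO1 and 0.11 in KO2, and 45 of the 58 were higher in KO1, KO2 and WT1 than in WT2 and WT3. WT1 was the highest clone among them, whereas the KO clones were the highest among the members. Tap1, the gene of this set with the largest WT response, had an untreated split of 0.29 ± 0.04 (SE), with WT1 highest and KO1 close to WT2. In untreated cells it had 29.7 ± 1.19 CPM in WT1, 19.8 ± 1.37 CPM in WT2 and 18.8 ± 1.44 CPM in WT3. It had 19.98 ± 0.961 CPM in KO1 and 22.6 ± 1.11 CPM in KO2 (SD, n = 3). After IFNG it had 254 ± 9.06 CPM in WT1, 175 ± 7.13 CPM in WT2, 183 ± 3.77 CPM in WT3, 262 ± 17.9 CPM in KO1 and 259 ± 20.3 CPM in KO2.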
